A study of Arabidopsis thaliana with 12 samples.

Results

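*XERICO* (AT2G04240, on chromosome 2) encodes a small protein with a RING-H2 finger, the domain that lets many plant proteins act as ubiquitin ligases. It was followed here through the 1 probe, numbered 664, to which the platform annotation gives *XERICO* and no other gene. It is 1 of 692 probes with a single gene, among 3437 probes with values, and 0 of the probes with several genes included it. The gene was chosen by its measured fall between these same groups, so its own levels are given as a description, with no test.

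Abscisic acid is the hormone with which plants close stomata, hold seeds dormant and switch on drought genes. Plants that make more *XERICO* transcript are known to hold more abscisic acid and to stand drought better, and the gene is a known target of the DELLA proteins, which restrain gibberellin responses. Its protein was found to bind the ubiquitin-conjugating enzyme UBC8 and the Tubby-like protein TLP9.

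The study hybridised RNA of *Arabidopsis thaliana* to 12 expression arrays, 6 titled stn8 and 6 titled WT. STN8 is a chloroplast kinase, bound to the thylakoid membrane, whose targets include the core of photosystem II, and the comparison asks which transcripts differ in its mutant. The titles alone give the groups, because the source and description fields name ecotype Columbia 0 and WT for all 12 samples. The allele, tissue, age, growth conditions, time of harvest and array design are not given in the sources used here. Whether the numbered arrays stand for different plants is not stated either, so each p-value reflects array-to-array spread that may be technical. Each of the 12 arrays correlated best, within its group, with its neighbour in number (1 with 2, 3 with 4, 5 with 6). If such neighbours are repeats of one hybridisation, which the labels do not state, a group of 6 holds 3 replicates, and with neighbours averaged 2011 probes were called in place of 2421.

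Array medians of deposited intensity lay between 0.330 and 0.349 in stn8 and between 0.297 and 0.369 in WT, and 220 to 254 probes were at exactly 0 on a stn8 array against 173 to 190 on a WT array. The array maxima did not overlap, at 84.4 to 93.9 in stn8 and 166 to 193 in WT. Quantile normalization gives all arrays the same distribution, so normalized differences depend on that step, most of all where the distributions differ. Over the 3079 probes above 0 on all arrays, Pearson's r of the log2 intensities was 0.964 to 0.986 within stn8, 0.928 to 0.983 within WT and 0.690 to 0.734 between the groups, across probes, which are not independent replicates. Most probes differed. In the limma fit, 70.4% of the 3437 probes passed an adjusted p of 0.05, with 35.8% lower and 34.7% higher in stn8. STN8 itself was not checked, because its transcript was not looked up, and whether it has a probe here is not stated. Where transcript levels differ in whole-tissue RNA, fewer cells of a type and less transcript per cell cannot be told apart.

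The *XERICO* probe had deposited intensities of 1.28, 1.29, 1.16, 1.27, 1.24 and 1.24 on stn8 arrays 1 to 6. On WT arrays 1 to 6 it had 5.21, 5.36, 6.11, 6.02, 6.45 and 6.67. The groups were far from overlapping, and the dimmest WT array was still several times as bright as the brightest stn8 array. Such a gap in deposited intensity was common on these arrays, since the groups did not overlap for 55.6% of all probes, and for 27% with stn8 on the lower side. The mean was 1.25 ± 0.0446 in stn8 and 5.97 ± 0.581 in WT (SD, n = 6 each), so the ratio of stn8 to WT was 0.209, a level 4.79-fold lower in stn8. For arrays of the same number the ratio of stn8 to WT lay between 0.186 and 0.245. After quantile normalization the log2 level was 0.20 ± 0.06 in stn8 and 2.75 ± 0.12 in WT (SD, n = 6 each), a difference of -2.54.

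**Figure D1:**
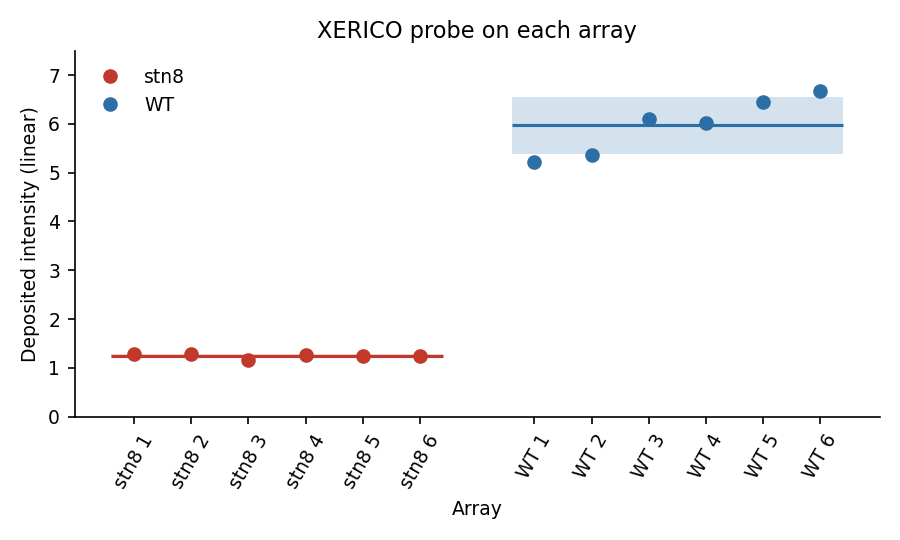
Deposited intensity (linear, vertical axis) of the XERICO probe on each array (horizontal axis), with the group mean as a line and 1 SD as a band. The stn8 arrays lie between 1.16 and 1.29 and the WT arrays between 5.21 and 6.67.

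The place of the probe within each array, which no scaling of a whole array can move, gave the same picture. Between 14.1% and 15.8% of all probes were brighter than *XERICO* on a stn8 array, against 2.09% to 2.65% on a WT array. In multiples of the array median its intensity was 3.34 to 3.88 in stn8 and 16.0 to 22.1 in WT. The highest of these multiples, 21.7 and 22.1, came from WT arrays 5 and 6, while the other WT arrays stood between 16.0 and 16.6. With WT arrays 5 and 6 left out, the WT mean was 5.67 ± 0.453 (SD, n = 4) and the level in stn8 was 4.55-fold lower.

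Within a group the *XERICO* signal was steady. Its coefficient of variation was 3.57% over the stn8 arrays, where the median of the 3079 probes above 0 on all arrays was 11.6% and only 1.40% of them varied less. Over the WT arrays it was 9.73%, against a median of 16.3%, and 16.8% of the probes varied less. These comparisons were not matched for brightness, and *XERICO* was brighter than most probes in both groups. In stn8 the arrays numbered 5 and 6 differed by 0.0103% of their mean and those numbered 1 and 2 by 0.592%, while arrays 3 and 4 differed by 8.78%. In WT the same neighbours differed by 3.29% (5 and 6), 2.77% (1 and 2) and 1.50% (3 and 4), so arrays next to each other in number were closer in *XERICO* than the WT group as a whole. Leaving out any 1 array kept the level in stn8 between 4.67-fold and 4.91-fold lower.

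Among all differences between the groups, that of *XERICO* lay toward the lower end, and 169 of the 3437 probes had a more negative one. Of the 3079 probes above 0 on all arrays, 67 had a more negative log2 difference, and 55 of the other 3078, on either side, lay within 0.25 of it. Among the 616 of these that name a single gene, *XERICO* ranked 9 from the most negative, and 8 genes lay below it. By the ratio of deposited means it ranked 98 of 3079. Of 140 other probes within 0.5 of *XERICO* in mean log2 level, 64 (45.7%) were called lower and 61 higher in stn8. Over all probes, 35.8% were called lower and 34.7% higher. These 140 probes had a median log2 difference of -0.03, and 9 lay below *XERICO*. Probes of its brightness thus went both ways, and they were called lower more often than probes in general.

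**Figure D2:**
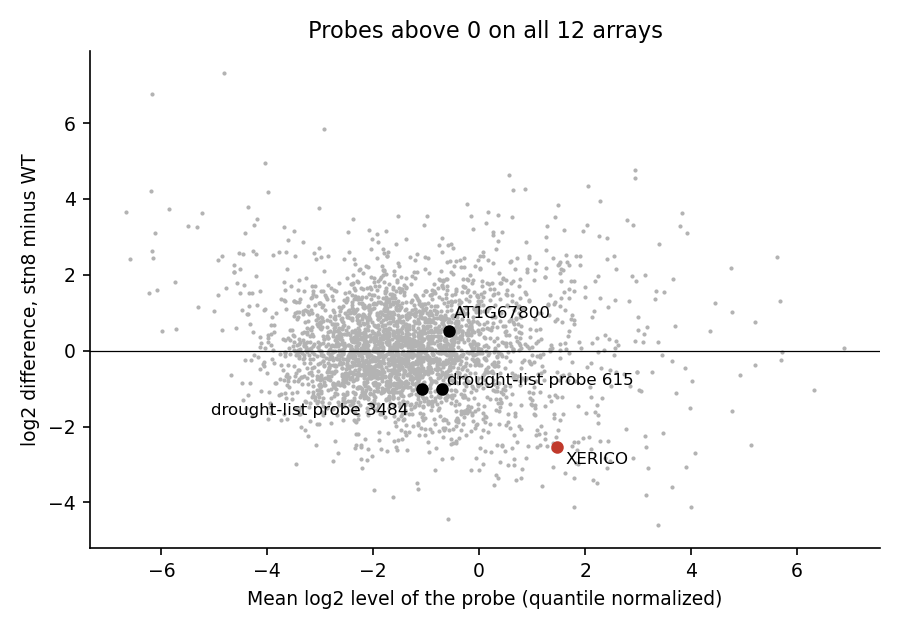
Difference between the groups (stn8 minus WT, log2, vertical axis) against the mean log2 level (quantile normalized, horizontal axis) for the 3079 probes above 0 on all arrays, each a grey point. XERICO, at -2.54, lies in the lower part of the cloud, with the probe of AT1G67800 above 0 and the 2 probes of the drought list near -1.

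Genes were ranked by how closely their log2 levels over the 12 arrays followed those of *XERICO*, each gene centred on its own mean, using the root mean square difference between both profiles. The comparison covered 615 single-gene probes above 0 on all 12 arrays. The median root mean square difference was 1.39 and the largest 3.84 on the log2 scale, and the 8 closest genes lay between 0.101 and 0.307, with the next at 0.341. Since likeness to *XERICO* selects genes that are lower in stn8 by a like amount, their differences are a description, with no test.

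The closest was *CUTA*, which encodes a copper-binding protein of the plastid. Its intensities were 1.25, 1.17, 1.16, 1.25, 1.24 and 1.28 on stn8 arrays 1 to 6 and 5.11, 5.16, 5.39, 5.40, 5.07 and 5.75 on WT arrays 1 to 6. As with *XERICO*, the stn8 values were tightly grouped and lay far below every WT value, with a log2 difference of -2.42.

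Next came AT4G31470, with 0.558 ± 0.0300 in stn8 and 2.70 ± 0.330 in WT (SD, n = 6 each) and a log2 difference of -2.50. *PSBW*, a small subunit of photosystem II, was the third, with 7.53 ± 1.16 in stn8 and 44.0 ± 5.48 in WT and a log2 difference of -2.71. *LHB1B2*, an antenna protein also called LHCB1.5, which gathers light for photosystem II, was the sixth, with 1.41 ± 0.0839 in stn8 and 8.80 ± 0.838 in WT and a log2 difference of -2.99. Both photosystem II genes were dim on every stn8 array relative to every WT array. The eighth was *CCL*, a CCR-like gene whose transcript is known to be unstable and to cycle with the circadian clock, with 3.76 ± 0.485 in stn8 and 11.9 ± 1.67 in WT and a log2 difference of -2.06.

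The remaining genes of the 8 carry only locus names in the annotation. AT4G25290 had a log2 difference of -2.29, AT2G46630 of -2.14 and AT4G00170 of -2.77. AT4G00170 was dim, at 0.0808 ± 0.0187 in stn8 and 0.609 ± 0.0875 in WT. In *AT2G46630* the WT arrays were nearly level, between 0.992 and 1.08, whereas in AT4G25290 WT arrays 5 and 6, at 2.01 and 1.92, stood above the other WT arrays, which lay between 1.27 and 1.47. The closeness to *XERICO* thus came mainly from the step between the groups, while the WT arrays did not move in the same way in all 8 genes.

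**Figure D3:**
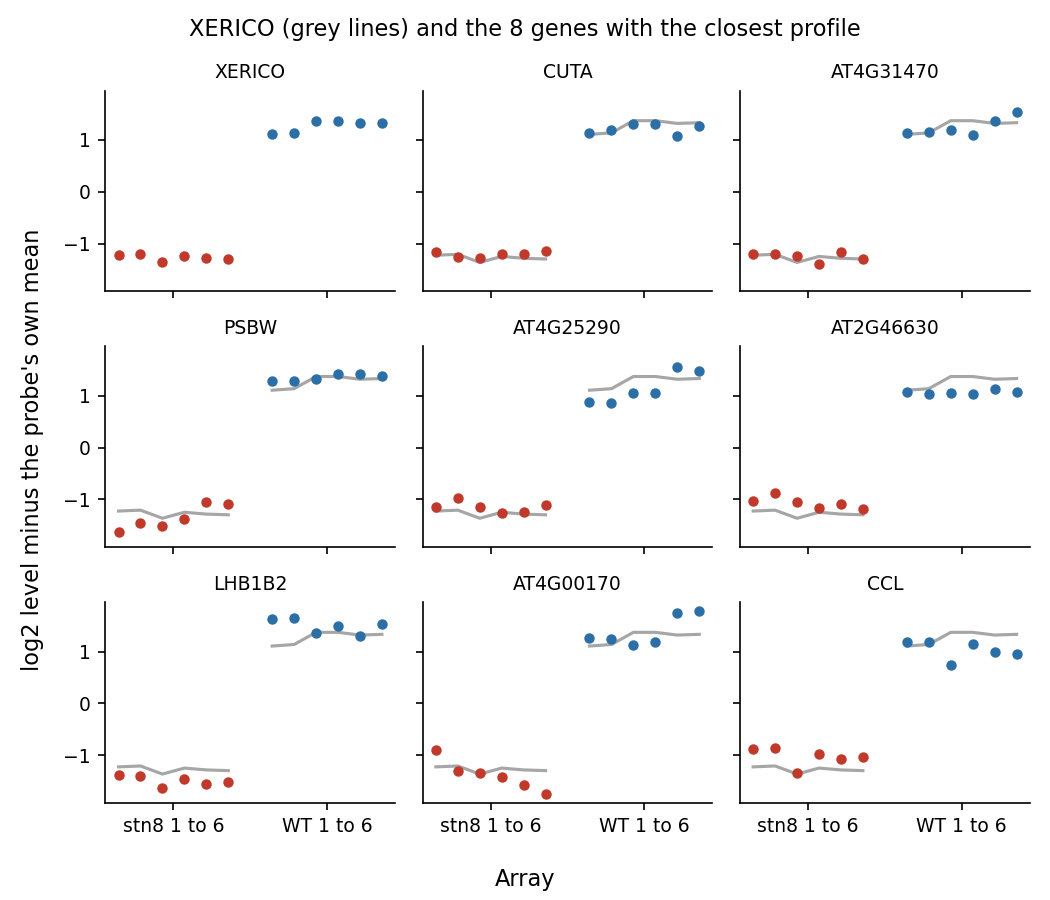
Log2 level of XERICO and of its 8 closest genes on each array, centred on each gene's own mean (vertical axis), with stn8 arrays 1 to 6 on the left and WT arrays 1 to 6 on the right of each panel, and XERICO repeated as grey lines. All 9 profiles show a step between the groups, from CUTA (root mean square difference 0.101) to CCL (0.307).

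The rest of the abscisic acid pathway could hardly be followed. Of 241 genes on 9 lists, 1 had a probe of its own, and 8 lists had 0. The lists without a probe of their own were abscisic acid synthesis, breakdown and transport (21 genes), its receptors, phosphatases and SnRK2 kinases (36), its transcription factors (32), genes it induces in drought (43), gibberellin and DELLA genes (35), the UBC8 enzyme family and TLP9 (9), guard cell genes (20) and markers of seed, epidermis, root and leaf mesophyll (12). Tissue makeup was therefore not checked.

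The exception was the list of ubiquitin ligases and their subunits that act on abscisic acid signalling (33 genes). Its measured member, AT1G67800, rose in stn8, with 0.759, 0.720, 0.983, 0.974, 0.858 and 0.918 on stn8 arrays 1 to 6 and 0.519, 0.515, 0.575, 0.543, 0.540 and 0.494 on WT arrays 1 to 6. All 6 stn8 values lay above all 6 WT values, where 55.6% of all probes had no overlap in either direction. WT was the tighter group. The log2 difference was 0.52 ± 0.07 (SE, limma adjusted p = 5.61e-05), where the median over all probes was 0.00 and 34.7% of probes were called higher.

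Only 2 of the 43 genes on the drought list were reached, by a pair of probes that each name both of them. No single gene can therefore be given, and the probes do not stand for the whole list. The first probe, numbered 615, had a mean of 0.454 ± 0.0726 in stn8 and 0.834 ± 0.215 in WT (SD, n = 6 each). Its log2 difference was -1.02 ± 0.18 (SE, limma adjusted p = 0.000397). The second, numbered 3484, had 0.343 ± 0.0285 in stn8 and 0.664 ± 0.223 in WT, with a log2 difference of -1.01 ± 0.20 (SE, limma adjusted p = 0.000893). Both fell in stn8 with no overlap between the groups, by less than *XERICO* on the log2 scale. Of all probes, 35.8% were called lower, and 27% had no overlap with stn8 on the lower side. The WT spread came largely from WT arrays 5 and 6, at 1.03 and 1.17 on the first probe and 0.722 and 1.09 on the second, where the other WT arrays reached at most 0.790 and 0.598. With these arrays left out both stayed called lower, at log2 differences of -0.76 and -0.71.

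Because the lists reached so few probes, 6 genes were added from the symbols in the annotation, after the lists had been matched. Of these, 3 were called higher, 1 lower and 2 not called, against 70.4% of all probes called. *FBL17* and *SAP* encode F-box proteins, the substrate-binding subunits of another class of ubiquitin ligase. *FBL17* had 0.245 ± 0.0222 in stn8 and 0.151 ± 0.00980 in WT, with a log2 difference of 0.85 ± 0.07 (SE, limma adjusted p = 6.04e-07). *SAP*, a dimmer probe, had 0.191 ± 0.0284 in stn8 and 0.123 ± 0.0244 in WT, with a log2 difference of 0.92 ± 0.18 (SE, limma adjusted p = 0.000655). Like AT1G67800, *FBL17* and *SAP* were higher in stn8, as were 34.7% of all probes. Both were picked by name, and ubiquitin-related genes outside the lists were not surveyed.

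The stress genes were not uniform. *SIS*, named as salt-induced and serine-rich, rose in stn8, with 0.337 ± 0.0538 in stn8 and 0.155 ± 0.0100 in WT, and a log2 difference of 1.22 ± 0.11 (SE, limma adjusted p = 1.66e-06). *DI21*, named as drought-induced, had 0.455 ± 0.0473 in stn8 and 0.498 ± 0.0624 in WT, with overlapping groups. Its log2 difference of -0.25 ± 0.10 did not pass (SE, limma adjusted p = 0.0528), it passed with the array number as a replicate block (adjusted p = 0.0308), and over all alternatives the adjusted p lay between 0.0220 and 0.277. With WT arrays 5 and 6 left out the log2 difference was -0.12. Of the transcription factors, *TCP15*, whose protein is known to take part in gibberellin responses, fell, with 0.0938 ± 0.0159 in stn8 and 0.217 ± 0.0307 in WT and a log2 difference of -0.97 ± 0.11 (SE, limma adjusted p = 8.44e-06). *LAS*, of the same GRAS family as the DELLA proteins, had 0.569 ± 0.0373 in stn8 and 0.479 ± 0.0996 in WT and did not pass (limma adjusted p = 0.418).

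**Figure D4:**
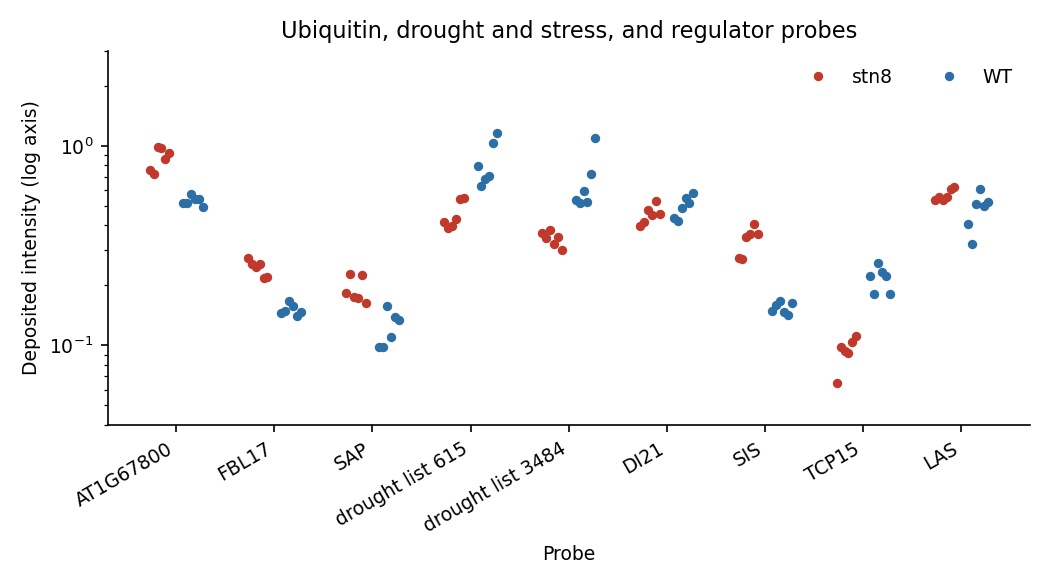
Deposited intensity (log axis) on each of the 6 stn8 arrays (left of each pair) and 6 WT arrays (right) for ubiquitin-related probes, the 2 drought-list probes, 2 stress genes and 2 transcription factors. AT1G67800, FBL17, SAP and SIS are higher in stn8, the drought-list probes and TCP15 are lower, and DI21 and LAS overlap.

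Along chromosome 2 the genes nearest to *XERICO* with a probe of their own were far from adjacent, 15 to 179 genes away in the TAIR10.1 gene order. Of the 3 nearest on each side, 3 were called lower, 2 higher and 1 not called in stn8, where 35.8% of all probes were called lower and 34.7% higher. On the side after *XERICO*, AT2G04360, 15 genes away, rose by 0.86 ± 0.14 on the log2 scale (SE, limma adjusted p = 0.000199), with 0.254 ± 0.0153 in stn8 and 0.157 ± 0.0191 in WT. AT2G04540, 37 genes away, was not called, with 0.421 ± 0.0372 in stn8 and 0.419 ± 0.0215 in WT (log2 difference -0.09, and 0.0039 without normalization). AT2G04700, 60 genes away, fell, with a log2 difference of -0.60 ± 0.05 (SE, limma adjusted p = 9.45e-07). On the side before it, AT2G03390 fell (-0.69 ± 0.11, SE, limma adjusted p = 0.000159) and AT2G03140 rose (1.76 ± 0.15, SE, limma adjusted p = 9.89e-07). AT2G03200 was listed at 0 on all 6 stn8 arrays and at 0.50 ± 0.0944 in WT (SD, n = 6), and no fold is given against a group at 0. Genes in this stretch of the chromosome went in both directions, as probes did in general.

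The probes numbered next to *XERICO* also differed, and in both directions. The layout of the array was not given, so these numbers need not be positions. Of the 4 other probes with values within 4 numbers, 1 is annotated to 2 genes, 1 to 3 genes and the others are unnamed. Probe 668 had 5.81 to 8.58 in stn8 and 0.719 to 1.15 in WT, a level opposite in direction to *XERICO*. Probe 665, the nearest, had 2.19 ± 0.124 in stn8 and 2.40 ± 0.117 in WT (SD, n = 6 each), with overlapping deposited intensities, and was called lower after normalization (log2 difference -0.41 ± 0.04, SE, limma adjusted p = 3.79e-06). Probe 661 had 0.0756 ± 0.0187 in stn8 and 0.504 ± 0.108 in WT, and probe 662 had 0.167 ± 0.0316 in stn8 and 0.598 ± 0.0464 in WT. Of 34 other probes within 25 numbers, 17 were called lower, 11 higher and 6 not called, so that 82.4% were called, against 70.4% of all probes, with a median log2 difference of -0.34. The part of these neighbours in the *XERICO* difference was not tested.

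**Figure D5:**
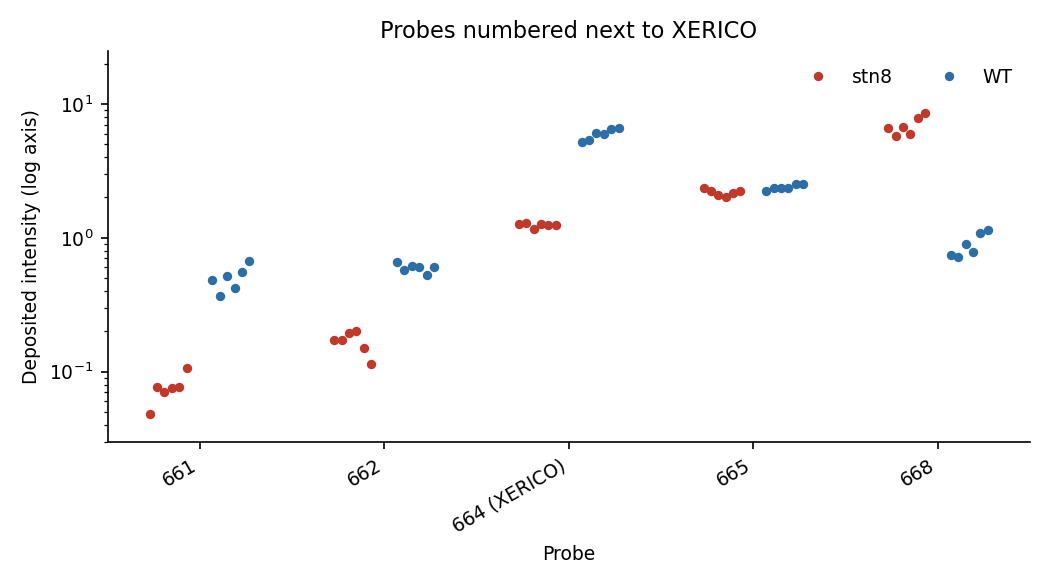
Deposited intensity (log axis) on each of the 6 stn8 arrays (left of each pair) and 6 WT arrays (right) for XERICO and the 4 probes within 4 numbers of it. XERICO, 661 and 662 are lower in stn8, 668 is higher (5.81 to 8.58 against 0.719 to 1.15), and the deposited intensities of 665 overlap, although it was called lower after normalization (-0.41).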

How the data were processed

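The authors deposited 1 table of intensity values for 3439 rows, of which 2 held no value. The values are linear and never negative. How they were background-corrected and scaled is not given in the sources used here. Platform annotation named 1 gene for 692 probes, several for 869 and did not list 1876, and 690 of the 692 matched the TAIR10.1 gene table. Each 0 was replaced by its array's smallest value above 0, and log2 values were quantile normalized, because array medians differed by up to 0.311 on the log2 scale. The contrast stn8 minus WT was fitted in limma 3.58.1 under R 4.3.3 (lmFit, eBayes, two-sided, Benjamini-Hochberg over 3437 probes). The fit was tested on simulated data. Figures used matplotlib 3.10.9 under Python 3.11.15.

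Deviations from the group mean were correlated between arrays that share a number (r of 0.170 to 0.333 in all 6 pairs), so the number was tried as a block. *XERICO* deviated to opposite sides in 5 of the 6 pairs. The number of arrays limits the precision.

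Genes named were *XERICO*, measured list members (4 per list at most), the 8 closest profiles, the 3 nearest chromosome neighbours per side and single-gene probes within 4 numbers (there were 0). *XERICO* and the lists were chosen with earlier results of these data known. A planned list of RING-H2 proteins found by sequence was not analysed here.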

Additional observations from a re-analysis of the deposited data

Results flagged for a closer look

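In 48 groups of 6 arrays, from *XERICO* and most of the other genes and probes described, 3 held an array far from the others. Chance flags about 1 in 20 groups, a share near that seen, so these are given as a description. *XERICO* on stn8 array 3 was at 1.16, below the other stn8 arrays, which lay between 1.24 and 1.29. AT2G03140 on WT array 5 was at 0.106, below the other WT arrays at 0.180 to 0.221. Drought-list probe 3484 (probe_3484) on WT array 6 was at 1.09, above the other WT arrays at 0.515 to 0.722.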

How the results depend on the processing

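The log2 difference of *XERICO* stayed negative in all 21 alternatives. It was -2.25 without normalization, -2.31 with median centring and -2.67 with cyclic loess, each further from -2.54 than 1 within-group SD (0.0935). Leaving out 1 array gave -2.59 to -2.52, and leaving out WT arrays 5 and 6, chosen after the data were seen, -2.50. With the array number as a replicate block it was -2.54, and 2477 probes were called in place of 2421, 2372 of them shared. Among the genes and drought-list probes followed through the alternatives, the block changed no call other than that of *DI21*. The probes numbered next to *XERICO* were not followed there. *DI21* passed in 7 of 21 alternatives, among them without WT array 1, 2 or 3 or stn8 array 5 (limma adjusted p 0.0288 to 0.0446). It did not pass with neighbouring arrays averaged (0.203) or as a random block (0.115), nor without WT arrays 5 and 6 (0.208). Averaging arrays next to each other in number left 2011 probes called, 2000 of them shared. Over the alternatives that tested all 3437 probes the count was 2011 to 2494. With the dimmest 33.3% removed, 1841 of the 2291 probes left were called. AT2G04540, not called, turned to 0.0039 without normalization. AT1G67800 kept its call throughout (adjusted p 1.56e-05 to 0.0107), as did the drought-list probes. Of the 8 closest profiles, 6 remained without normalization and with median centring, and 7 or 8 in the other settings where they were ranked. Values near 0 and unstated background correction limit dim probes most.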
